A study of Mus musculus with 2 samples.

Results

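GATA4 peaks were described at 7 genes of the cellular oxygen response in mouse liver, namely Epas1, Hif1a, Hif3a, Arnt, Egln1, Egln3 and Vhl. The genes were taken by name from GENCODE mouse release 21, and their peaks were chosen by position, with the summit inside the gene or within 10 kb of it. Of the 24050 peaks of the authors' optimal list on chromosomes 1 to 19, X and Y, 20 met this rule, and 12 of the 20 lay at Epas1. Epas1 also held the peak of rank 14 in the whole list, in the first intron. Egln1 had 2 peaks, Egln3 had 2, Hif3a had 3 and Arnt had 1, whereas Hif1a and Vhl had none. Thus 5 of the 7 genes had a linked peak, against 47.6% of 21755 protein-coding genes, and 3 had one among the strongest 6012 peaks, against 18.1%. Because the genes were picked with these peaks known, the counts and ranks are a description and carry no test.

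EPAS1, also called HIF-2α, is the alpha subunit of a hypoxia-inducible factor and is abundant in vascular endothelium and also made by hepatocytes. HIF alpha subunits pair with the beta subunit ARNT and bind hypoxia response elements, whose core is ACGTG or GCGTG. When oxygen is plentiful, prolyl hydroxylases (EGLN1, also called PHD2, and EGLN3, also called PHD3) mark the alpha subunits, and the VHL ubiquitin ligase then sends them for degradation. GATA4 is a zinc-finger factor that recognises a short motif around the letters GATA and acts in the liver's sinusoidal endothelium, among other cells.

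Chromatin of whole liver from healthy adult mice was precipitated with a GATA4 antibody and sequenced (ChIP-seq), as 1 group of 2 samples labelled biological replicates 1 and 2. Neither sex nor an exact age is stated, and no treatment or genetic change is named in the labels. Both samples carry the same biosample and donor identifiers, so differences between them may be technical. Peak lists hold no expression values, so the labelled tissue was not checked against marker genes, and the cell types behind a peak in whole liver cannot be told apart.

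Peaks were ranked by the peak caller's signal score, which the authors deposited without a unit, so that rank 1 is the strongest of 24050. Reproducibility was given as the authors' IDR score, which rises as the irreproducible discovery rate falls and is capped at 1000. The optimal list holds scores of 537 and above. Replicate 1's own thresholded list has 4287 peaks and replicate 2's has 26314, both with scores of at least 540. The conservative list is the authors' stricter selection from the same earlier run as the optimal list. The files carry no read numbers, so the depth of either sample is unknown.

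The sequence within 50 bp of the summit is shown for 8 peaks, namely the 5 strong Epas1 peaks, the Epas1 promoter peak and the strongest peaks of Egln1 and Egln3, because they show which of these had a GATA site near the summit and which had none. All are from the RefSeq sequence of GRCm38.p6 (mm10), plus strand, 5′ to 3′. Capitals mark the GATA hexamer, searched as AGATAA or AGATAG or TGATAA or TGATAG on either strand, so that TTATCA or CTATCT are the same motif read on the other strand. Epas1 peaks come first, in order of rank, followed by the Epas1 start site, Egln1 and Egln3.
Epas1 rank 14, chr17:86769880-86769980: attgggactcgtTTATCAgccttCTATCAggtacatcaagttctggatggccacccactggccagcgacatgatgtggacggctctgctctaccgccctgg
Epas1 rank 424, chr17:86776785-86776885: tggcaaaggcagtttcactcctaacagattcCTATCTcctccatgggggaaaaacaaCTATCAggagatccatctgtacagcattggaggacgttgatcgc
Epas1 rank 1056, chr17:86755448-86755548: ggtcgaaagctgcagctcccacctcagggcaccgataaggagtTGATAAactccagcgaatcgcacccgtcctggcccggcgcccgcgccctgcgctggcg
Epas1 rank 1390, chr17:86825284-86825384: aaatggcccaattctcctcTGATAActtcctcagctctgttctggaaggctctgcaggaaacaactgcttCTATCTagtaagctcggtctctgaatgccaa
Epas1 rank 1785, chr17:86800686-86800786: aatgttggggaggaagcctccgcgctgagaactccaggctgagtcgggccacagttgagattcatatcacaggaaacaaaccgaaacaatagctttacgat
Epas1 rank 17435, upstream of the start site, chr17:86753459-86753559: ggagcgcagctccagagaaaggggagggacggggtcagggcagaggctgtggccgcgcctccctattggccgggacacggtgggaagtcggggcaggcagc
Egln1 rank 728, chr8:124922057-124922157: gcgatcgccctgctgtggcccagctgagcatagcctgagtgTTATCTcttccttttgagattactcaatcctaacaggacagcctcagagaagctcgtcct
Egln3 rank 14790, chr12:54197482-54197582: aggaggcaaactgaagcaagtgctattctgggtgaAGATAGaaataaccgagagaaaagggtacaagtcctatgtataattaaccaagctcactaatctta

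Epas1 lies on chromosome 17 at 86753700 to 86833410, plus strand, and spans 79.7 kb. Its 12 summits gave 1.2 per 10 kb of searched sequence. Among protein-coding genes, 0.441% had at least as many summits, 1.87% had as high a density, and 0.101% had a peak as strong. The 12 peaks fell into a strong and a weak set. In the strong set 5 peaks had signal scores of 91.9 to 256.4 and IDR scores at the cap of 1000. A score at the cap was common, at 52.5% of all optimal peaks and 7 of the 20 linked peaks (35.0%). In the weak set 7 peaks had signal scores of 8.4 to 31.9 and IDR scores of 573 to 818. No Epas1 peak lay between these ranges.

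**Figure D1:**
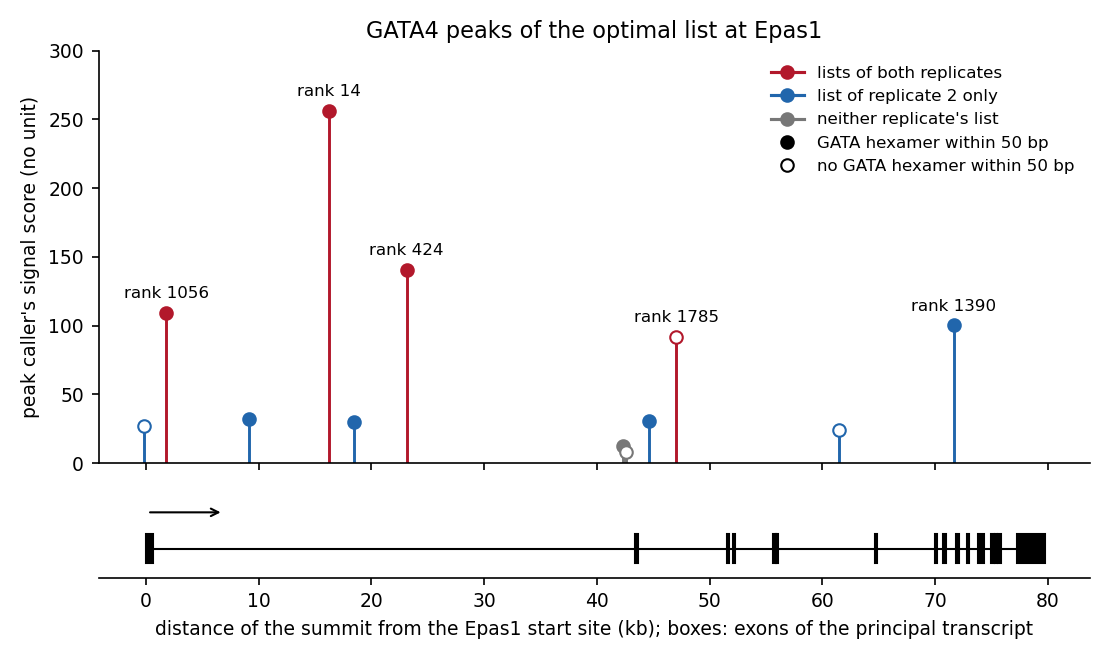
Signal score of each optimal-list peak (vertical axis, no unit) against the distance of its summit from the Epas1 start site (horizontal axis, kb), with exons of the principal transcript drawn as boxes. Colour gives the replicates' lists that hold the peak, and filled points have a GATA hexamer within 50 bp; the 5 strong peaks (91.9 to 256.4) stand apart from the 7 weak ones (8.4 to 31.9).

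The strongest peak, of rank 14, lay at chr17:86769771-86770101 in intron 1, with its summit 16230 bp downstream of the start site and a signal score of 256.4. Replicate 1's relaxed list, which holds peaks and background before any threshold, had a peak there of signal score 51.6 and rank 124. Replicate 2's relaxed list had one of signal score 205.1 and rank 14. Both replicates' thresholded lists and the conservative list contained it. Scores of the replicates come from separate peak calls with separate controls and were not compared. Within 50 bp of this summit lay TTATCA, 36 bp to the left, and CTATCA, 24 bp to the left. Both are GATA hexamers on the minus strand, and both are in the capitals printed above.

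The peak of rank 424, at chr17:86776725-86776941, was also in intron 1, 23135 bp from the start site, with a signal score of 140.6. It ranked 699 in replicate 1's relaxed list (signal score 32.4) and 529 in replicate 2's (signal score 102.1). Its 2 hexamers, CTATCT 16 bp to the left and CTATCA 10 bp to the right, lay on both sides of the summit. Nearer the start site, the peak of rank 1056, at chr17:86755407-86755603, was the strong peak closest to it, 1798 bp into the gene, with a signal score of 109.5. It ranked 1749 in replicate 1's relaxed list (signal score 23.3) and 1083 in replicate 2's (signal score 84.2). A single TGATAA lay 4 bp from its summit, in sequence of 67.3% GC.

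The remaining strong peaks lay further into the gene. The peak of rank 1390, at chr17:86825237-86825443, lay in intron 9, 71634 bp from the start site, with a signal score of 100.4. Its 2 hexamers stood 28 bp to the left and 22 bp to the right. It ranked 2740 in replicate 1's relaxed list (signal score 19.4) and 1303 in replicate 2's (signal score 79.4). Replicate 1's thresholded list did not hold it, and its IDR score in replicate 1's ranked list was 98. In intron 2, the peak of rank 1785, at chr17:86800696-86800787, lay 47036 bp from the start site, with a signal score of 91.9. It ranked 3251 in replicate 1's relaxed list (signal score 17.9) and 1857 in replicate 2's (signal score 70.5), and both thresholded lists held it. It had no GATA hexamer, only the letters GATA outside the 4 hexamers searched, and 2 ETS cores, the sequence read by ETS factors. An ETS core was at 46.0% of all optimal summits.

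The 7 weak Epas1 peaks included the optimal list's only peak at the promoter. This peak, of rank 17435, lay at chr17:86753329-86753688 with its summit 191 bp upstream of the start site and a signal score of 27.2. Replicate 2's relaxed list held it at rank 14027 (signal score 26.6). In replicate 1's relaxed list the overlapping peak had rank 260007 (signal score 4.5) and a summit 180 bp away. The promoter peak had no GATA hexamer within 180 bp and a GC content of 71.3%. Replicate 2's list held a further promoter peak that the optimal list lacked, 814 bp from the start site, at rank 19414 of 26314. The later run's pooled list held others, 873, 1078 and 27919 bp from the start site, at rank 21306 or lower of 23696. None of these had a GATA hexamer. The weak set also held 5 peaks in replicate 2's list or in neither list inside introns 1 and 2, and 1 in intron 6. A pair of these, of ranks 23376 and 23972 in intron 1, shared 161 bp, had summits 199 bp apart and were in neither replicate's list.

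Of the 11 intronic Epas1 peaks, 7 lay in the first intron, which is 42.8 kb long. The 2 peaks of Egln1 and the 2 of Egln3 were in first introns as well, of 32.5 and 17.5 kb. In all, 11 of the 17 intronic peaks at these genes lay in a first intron, against 33.1% of all intronic peaks of the optimal list. The 2 shares are not fully alike, because the 17 were set against the listed gene's own principal transcript and the 33.1% against that of any gene. The 2 intronic peaks linked to Hif3a lay outside its principal transcript and so could not count. That of rank 18779 was upstream of it, and that of rank 21646 was in an intron of a neighbouring gene. First introns also make up much of Epas1, Egln1 and Egln3, which span 79.7, 40.7 and 24.9 kb. By class, 17 of the 20 peaks were intronic, 3 were at promoters, 0 were exonic and 0 were intergenic. The shares of all optimal peaks were 40.4%, 21.6%, 2.33% and 35.7%. The rule, which takes whole genes, sets these shares in part.

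Beyond 10 kb, a further 5 optimal peaks had the Epas1 start site as the nearest one. They lay 21465 to 85702 bp upstream. The strongest of them, at chr17:86677075-86677214, had rank 2152 and 1 GATA hexamer, and was in replicate 2's list but not replicate 1's.

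Egln1, whose product is the main oxygen-sensing prolyl hydroxylase, lies on chromosome 8 at 124908587 to 124949324, minus strand. Its stronger peak, of rank 728, lay at chr8:124921997-124922236 in intron 1, 27217 bp downstream of the Egln1 start site. The start site of Sprtn, a neighbouring gene, was nearer, at 24221 bp. The signal score was 122.2 and the IDR score 1000. It ranked 6110 in replicate 1's relaxed list (signal score 13.5, summit 88 bp away) and 433 in replicate 2's (signal score 107.6). It was in replicate 2's thresholded list and the conservative list, but not in replicate 1's thresholded list. In replicate 1's ranked list, before the threshold, its IDR score was 305. TTATCT lay 6 bp from the summit, with an ETS core beside it and the E-box CAGCTG, a sequence read by basic helix-loop-helix factors, 28 bp away. The other Egln1 peak, of rank 21373 and signal score 21.9, lay 23556 bp from the start site, had no hexamer within 50 bp and was in neither replicate's list.

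Egln3, whose transcript is itself induced by hypoxia, lies on chromosome 12 at 54178981 to 54203860, minus strand. The peak of rank 14790, at chr12:54197352-54197711, lay 6328 bp from the start site with a signal score of 31.0 and the hexamer AGATAG 12 bp from the summit. Deeper in the gene, the peak of rank 18213, at chr12:54187895-54188254, lay 15785 bp from the start site with a signal score of 26.2 and 2 hexamers. Neither was in a replicate's thresholded list. The relaxed lists placed the peak of rank 14790 at 6752 in replicate 1 and 24019 in replicate 2, and that of rank 18213 at 9066 and 30574. The conservative list nevertheless held the peak of rank 14790, whose IDR score was 958 in the optimal list but 316 in replicate 1's ranked list and 434 in replicate 2's. The lower IDR score of 545, that of rank 18213, was the lowest among the 20 peaks and just inside the limit of 537.

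Arnt, the gene of the shared beta subunit, lies on chromosome 3 at 95434388 to 95497240, plus strand. Its only peak, of rank 5398, lay at the promoter at chr3:95434289-95434648, 41 bp from the nearest annotated start site and inside exon 1. The signal score was 57.5 and the IDR score 1000. It ranked 66767 in replicate 1's relaxed list (signal score 6.9, summit 84 bp away) and 4661 in replicate 2's (signal score 48.6). Replicate 2's thresholded list held it, and neither replicate 1's nor the conservative list did. No GATA hexamer lay within 180 bp of the summit, and the window had a GC content of 72.3%. The promoter peaks of Arnt and Epas1 thus shared high GC, no hexamer and absence from replicate 1's list. Of all optimal peaks, only 17.0% were in that list and 52.8% had a hexamer, so neither absence is unusual. The third promoter peak, of rank 12126 and linked to Hif3a, was also absent from that list but had 50.5% GC and 1 hexamer.

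Hif3a encodes a further alpha subunit, some forms of which restrain the others. The gene lies on chromosome 7 at 17031507 to 17062427, minus strand. Of its 3 linked peaks only that of rank 18779, at chr7:17058141-17058500, was inside Hif3a, 1642 bp from its nearest start site, with a signal score of 25.5 and no hexamer. The peak of rank 12126, at chr7:17028095-17028454, lay 359 bp from the start site of the neighbour Ppp5c, a protein phosphatase gene, and that of rank 21646 lay in an intron of Ppp5c, 7604 bp past the end of Hif3a. Each of these had 1 AGATAA. All 3 were in replicate 2's list, and none was in replicate 1's or in the earlier conservative list.

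Hif1a, the other main alpha subunit gene, and Vhl had no summit within 10 kb. The nearest optimal summit lay 66333 bp outside Hif1a, at rank 20023, and nearer to a start site of Syt16. The start site of Hif1a was the nearest one for 7 optimal peaks at 90796 to 135987 bp, the strongest of rank 2367. In the relaxed list of the pooled reads, the strongest peak within 10 kb of Hif1a lay 558 bp from its start site, with a signal score of 18.4 and rank 32039, and did not enter the optimal list. For Vhl the nearest optimal summit lay 34782 bp outside the gene, at rank 10261. Replicate 2's list held 1 peak within 10 kb of Vhl, at rank 20086 of 26314, but its summit was 4 bp from the start site of the neighbour Irak2.

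**Figure D2:**
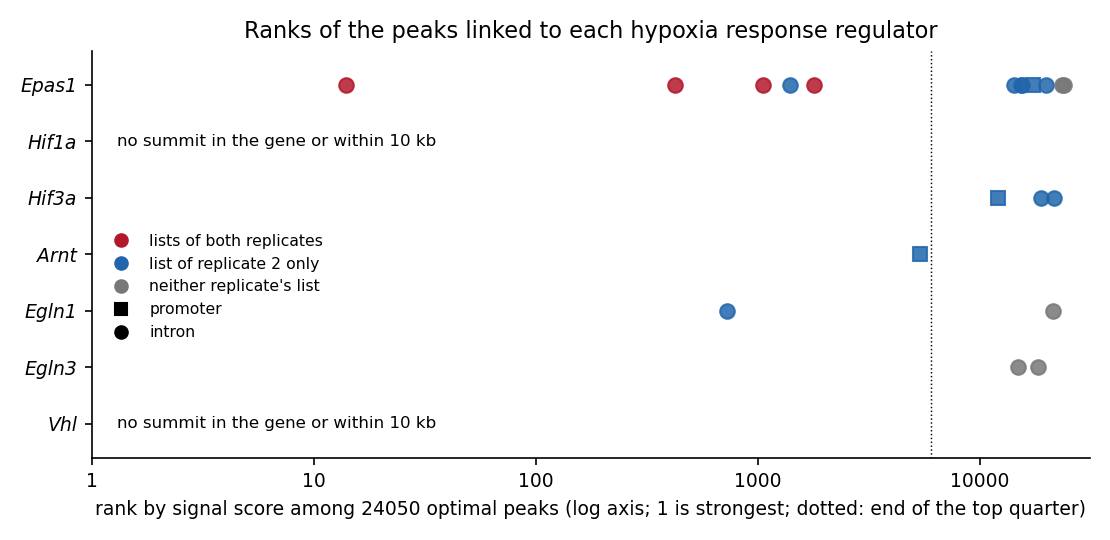
Rank of each linked peak by signal score (horizontal log axis, 1 is strongest of 24050), by gene; squares are promoter peaks, circles intronic ones, and colour gives the replicates' lists. The 5 peaks of Epas1 from rank 14 to 1785, that of Egln1 at 728 and that of Arnt at 5398 lie left of the dotted line at rank 6012, and Hif1a and Vhl have none.

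By rank, 7 of the 20 peaks fell among the strongest 6012 (25.0% of the list), and the gene order by strongest peak was Epas1 (14), Egln1 (728), Arnt (5398), Hif3a (12126) and Egln3 (14790). Ranks near each other in the lower part rest on small differences in score. The strongest peaks of Hif3a and Egln3 had signal scores of 35.6 and 31.0, and Hif3a had the lower IDR score, 576 against 958 for Egln3. The median signal score was 30.7 over the 20 peaks and 35.8 over all optimal peaks.

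The replicates' own lists held different numbers of the 20 peaks. Replicate 1's list held 4 of the 20 peaks (20%, 95% exact binomial interval 5.73 to 43.7%), all at Epas1, against 17.0% of all optimal peaks. These were 4 of the 7 linked peaks among the strongest 6012, where the share over all peaks was 53.5%. Of the 13 weaker linked peaks it held 0, against 4.90% of all weaker peaks. Replicate 2's list held 15 of 20 (75.0%, 50.9 to 91.3%), against 82.5%. The 5 peaks in neither list, against 16.7% of all optimal peaks, were 2 of Epas1, 1 of Egln1 and 2 of Egln3. The conservative list held 7 (35.0%, 15.4 to 59.2%), against 38.2%. The later pooled list held 15, against 83.2%. The 7 in the conservative list were the 5 strong Epas1 peaks, the Egln1 peak of rank 728 and the Egln3 peak of rank 14790. These shares were near those of the list as a whole, and the intervals cover counting error over peaks only. Peaks of 1 gene share their locus and are not independent.

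**Figure D3:**
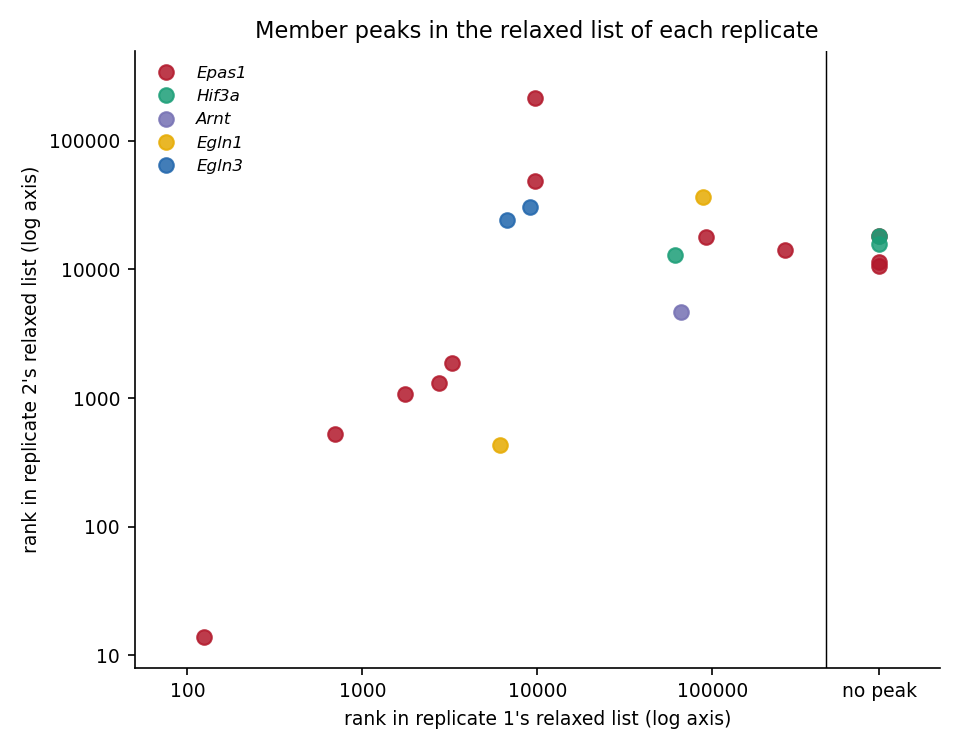
Rank of the strongest overlapping peak in replicate 1's relaxed list (horizontal log axis) against that in replicate 2's (vertical log axis) for the 20 peaks, coloured by gene, with peaks that replicate 1's relaxed list lacks at the right. The Epas1 peak of rank 14 stands alone at 124 and 14, and the 5 strong Epas1 peaks lie at 3251 or better in replicate 1 and 1857 or better in replicate 2.

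In the relaxed lists, replicate 2 had an overlapping peak at all 20 positions and replicate 1 at 15. The 5 positions without one in replicate 1 were 3 weak Epas1 peaks and 2 of Hif3a. Among the 15, those of Egln3 and the pair of weak Epas1 peaks at ranks 23376 and 23972 ranked better in replicate 1 than in replicate 2. Each relaxed list has 300000 lines, so weak overlaps may be background, and 2 overlapping summits of the pair were matched to the same peak of replicate 1.

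GATA hexamers lay within 50 bp of 13 of the 20 summits (65.0%, 95% exact binomial interval 40.8 to 84.6%), against 52.8% of all optimal summits. Any GATA letters were at 16 (80.0%), against 67.8%. At Epas1 8 of 12 had a hexamer. Among intronic peaks the counts were 12 of 17 (70.6%) at these genes and 61.3% in the whole list, and among the strongest 6012 peaks 5 of 7 and 73.9%. At least 2 hexamers occurred at 4 of the 20 summits, 3 of them strong Epas1 peaks and the other at Egln3, against 10.4% of all summits. The form AGATAA was at 6 of the 20 (30%), against 27.2%. It was absent from the 5 strong Epas1 peaks, of which 4 carried TGATAA or its other-strand reading TTATCA, or the readings CTATCA or CTATCT, and the peak of rank 1785 carried no hexamer.

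Motifs of other factors were searched in the same windows on both strands. The ETS core (AGGAAA or AGGAAG or CGGAAA or CGGAAG) was at 10 of 20 summits (50%), against 46.0% of all summits. The E-box CAGCTG was at 3 of 20 (15.0%, 3.21 to 37.9%), against 7.68%, and each time with a GATA hexamer in the same window, at Epas1 ranks 15544 and 23376 and at Egln1 rank 728. The core bound by FOX factors (TGTTTAC or TATTTAC or TGTTTGC or TATTTGC) was at 3 of 20, against 7.66%. The AP-1 site, TGAGTCA or TGACTCA, was at 1 (Egln3 rank 18213), against 2.45%. The hormone receptor hexamer AGGTCA was at 1, against 11.8%, beside Ppp5c. The GC-box GGGCGG of SP factors was also at 1, against 9.33%, in the Epas1 peak of rank 14. The core of the hypoxia response element, ACGTG or GCGTG, was at 0 of 20 (0 to 16.8%), against 16.2%. These letters are not in these windows, and nothing follows from that about HIF binding.

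**Figure D4:**
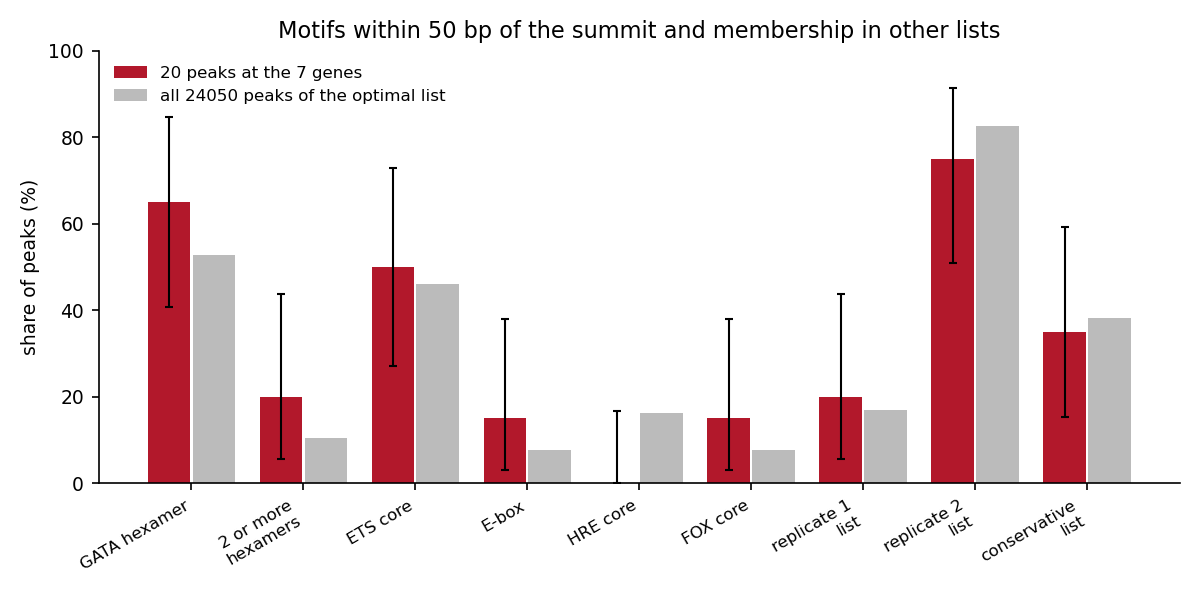
Share of peaks (%) with each motif within 50 bp of the summit, and in each other peak list, for the 20 peaks at the 7 genes (red, with 95% exact binomial intervals) and for all 24050 peaks (grey). The grey bars lie inside the intervals of the red ones, at 65.0% against 52.8% for the GATA hexamer and 0% against 16.2% for the hypoxia response element (HRE) core.

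Among the 16 other regulators of the pathway, 10 had a peak by the same rule (62.5%, against 47.6% of protein-coding genes). None of these summits was in replicate 1's list, which had a summit at 11.4% of protein-coding genes. The strongest lay in introns of Arntl (rank 5066) and Npas2 (rank 5752), which encode relatives of the HIF subunits that act in the clock. The start site nearest to the Npas2 peak was that of Rpl31, 82854 bp away. A peak of rank 6871 lay in an intron of Ahr, the dioxin receptor that also pairs with ARNT. A peak of rank 8722 lay 1573 bp from the start site of Elob, a subunit of the VHL ligase. That of rank 8781 was within 10 kb of P4htm, a membrane prolyl hydroxylase gene, but 52 bp from the start site of Dalrd3. The next, of rank 17089, was at the promoter of Cited2, a feedback inhibitor of HIF. Egln2, the gene of the third prolyl hydroxylase, had a promoter peak of rank 17784, 3 bp from its start site. No summit was linked to Hif1an, Arnt2, Eloc, Cul2, Rbx1 or Ep300.

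Among 38 genes known to respond to hypoxia, 25 had a summit (65.8%, against 47.6%), and 5 had one that replicate 1's list shared. Over all protein-coding genes, 11.4% had a summit of replicate 1's list. A summit of the optimal list was linked to 7 of 10 genes in the glycolysis group and 5 of 7 in the secreted and vascular group. It was linked to 4 of 6 in the mitochondrial group and 8 of 10 in the feedback, signalling and chromatin group. In the matrix group only P4ha2 of 5 genes had one, at rank 17956. The strongest lay 7099 bp from the start site of Angptl4 (rank 107), which encodes a secreted inhibitor of lipid uptake, and at the promoter of Ldha (rank 265), the lactate dehydrogenase gene. A peak of rank 463 was inside the annotated span of Epo, the erythropoietin gene, but its summit lay 30 bp from the start site of Pop7. The promoters of Bnip3l (rank 989), a mitophagy receptor gene, and Edn1 (rank 1290), the endothelin gene, and an intron of Pfkfb3 (rank 1536), a glycolytic regulator, followed. Of these 6 strongest peaks, those of Angptl4 and Ldha were in replicate 1's list, each with 1 GATA hexamer, and the other 4 were not and had none. Over all of the strongest 6012 peaks, 53.5% were in that list and 73.9% had a hexamer. List and hexamer did not always go together. The Epas1 peak of rank 1785 was in the list without a hexamer, and that of rank 1390 had 2 hexamers and was not. No summit was linked to Vegfa, Pdgfb, Pdk1, Higd1a, Pfkfb4, Tpi1, Aldoa, P4ha1, Plod2, Lox, Loxl2, Car9 or Tfrc. The symbol Aldoa has 2 annotated records, and neither had one.

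**Figure D5:**
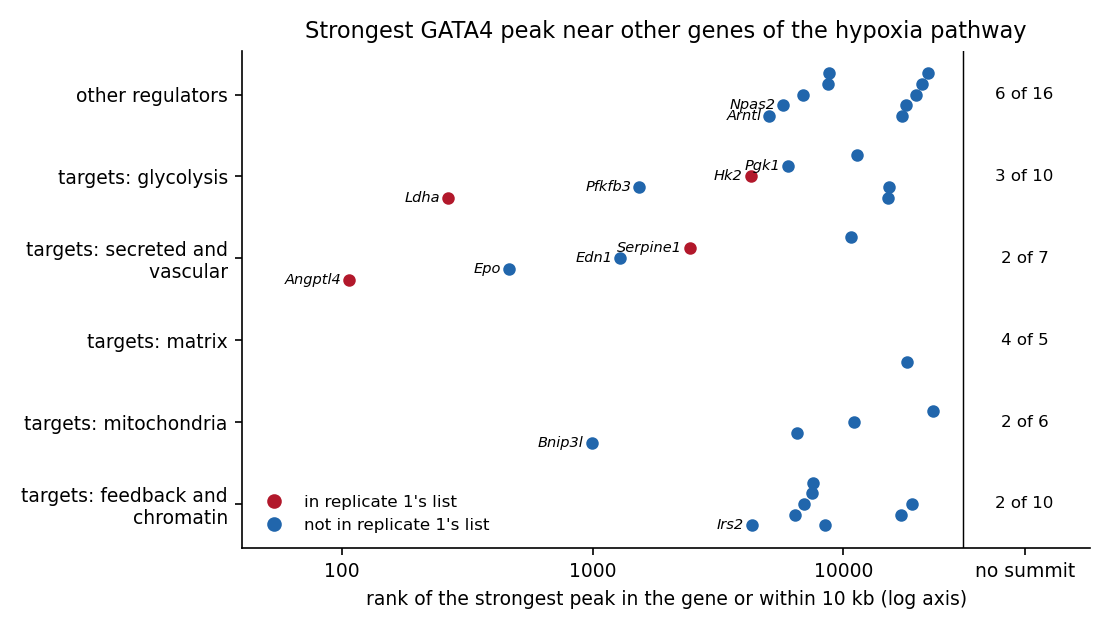
Rank of the strongest optimal peak in or within 10 kb of each other pathway gene (horizontal log axis), by list, with red points for peaks shared with replicate 1's list; counts at the right give genes with no summit. Angptl4 (107), Ldha (265) and Epo (463) rank highest, and none of the 10 regulators with a summit has a red point.

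By the rule for genes of like pattern, 15 other protein-coding genes also had 12 summits in the optimal list. The 3 whose strongest peak was nearest in rank to that of Epas1 were Mgll (rank 120, span 103.9 kb), a monoacylglycerol lipase gene, Tns3 (rank 197, span 232.9 kb), a focal adhesion gene, and Tjp1 (rank 266, span 231.6 kb), the gene of the tight junction protein ZO-1. The likeness is in count and rank in 1 list only.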

How the data were processed

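Peak lists from 2 GATA4 ChIP-seq samples of mouse liver were used. Per the file tables that the authors deposited, the optimal, earlier conservative and relaxed lists come from an earlier run and the replicates' thresholded and ranked lists from a later one, on mm10. The deposited signal score has no unit, and the deposited IDR score has a factor of 125 on −log2 of the IDR, as read from the values. The deposited −log10 q-value served only as an alternative ranking. Names of the aligner and peak caller were not given in the sources used here. A further 20 columns of 2 ranked lists name no sample and were not used.

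Summits were set against GENCODE mouse release 21 basic genes and GRCm38.p6 sequence with Python 3.11.15 and pysam 0.24.0. A promoter summit lay within 1 kb of a protein-coding start site; other classes were exon, intron and intergenic. Overlap meant at least 1 shared base. Motif windows were 101 bp. Intervals are exact binomial and cover counting error only; depth is unknown. The code was tested on made-up data with planted motifs, overlaps and links. The members and gene lists were chosen with earlier results of these data known. Every member peak among the strongest 6012 or in replicate 1's list, each gene's strongest peak, and up to 6 genes of each other list by rank are named. Genes without a summit are named as well. Egln2, P4ha2 and Aldoa were singled out after their values were seen, as were the gaps beyond 10 kb.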

Additional observations from a re-analysis of the deposited data

How the results depend on the processing

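Of 59 recomputed values, 45 kept their size (counts within 1.5 times, shares inside the interval) and 14 moved. Leaving out a replicate meant using the other's own list. Genes with a summit then numbered 1 to 5 of 7, the other regulators 0 to 13 of 16 and the targets 5 to 34 of 38, and linked peaks numbered 4 to 20. The low values came without replicate 2, where Epas1 alone was left with its 4 peaks and 0% were at promoters, while without replicate 1 the share was 25.0%. The hexamer share ran from 50 to 60.0%. With the conservative list the 4 counts were 3, 4, 13 and 7. Over all protein-coding genes, 21.9% had a summit of the conservative list, 11.4% of replicate 1's list and 51.8% of replicate 2's. With an IDR of 0.01, 6 other regulators and 8 linked peaks were left. By nearest start site 33 peaks belonged to these genes, 7 of them Hif1a's. AGATAA alone gave 30%. Ranked by IDR score, the best-placed Hif3a peak was at 19403. It was the peak of rank 18779 (IDR score 692), not that of rank 12126 (IDR score 576). No paired analysis was possible because the series has 1 group and no test was made. Depth is unknown, and replicate 1's list is the shorter. Of the 16 linked peaks missing from it, 11 overlapped a peak of its relaxed list and 5 did not.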
